A study of Mus musculus with 12 samples.

Results

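The 10 genes described here encode the subunits of AMP-activated protein kinase (AMPK), the sestrins and the stress protein REDD1, and they were chosen by name from 54022 genes measured in MIN6 cells. They are Prkaa1, Prkaa2, Prkab1, Prkab2, Prkag1, Prkag2, Sesn1, Sesn2, Sesn3 and Ddit4, and each name matched 1 row of the tables of counts and of FPKM (fragments of a gene scaled to its length and to the library's total). MIN6 is an established mouse insulinoma line that behaves like a pancreatic β cell and secretes insulin when glucose rises. The cells were given trimethylamine N-oxide (TMAO), a metabolite that gut bacteria and the liver make from choline, at 100 nM for 18 h, or vehicle, and were then put in low or high glucose before RNA was sequenced from whole cultures, with 3 biological replicates in each of the 4 groups (LGveh, LGTMAO, HGveh and HGTMAO). The series set out to look for the mechanism by which TMAO acts on these cells.

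AMPK is a complex of a catalytic α subunit, a scaffolding β subunit and a γ subunit that binds AMP and ADP. It is switched on when cellular energy is low, and in β cells it is known to be more active in low glucose than in high glucose. Sestrins and REDD1, the product of Ddit4, are made under stress and restrain the growth-promoting kinase complex mTORC1, the sestrins by binding the GATOR2 complex and REDD1 through the TSC complex. Most regulation of AMPK acts on the protein by phosphorylation and nucleotide binding, which RNA-seq does not measure.

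The 12 libraries held 16793162 to 22340542 counts. Insulin was abundant, with Ins2 at a mean of 25489 FPKM, and all 10 β-cell marker genes had a mean FPKM above 1. Among markers of other cell types, the summed α-cell markers, nearly all from Gcg, ranged from 199.9 to 216 FPKM in the 6 low-glucose libraries and from 222 to 228 FPKM in the 6 high-glucose libraries. The summed macrophage markers ranged from 2.91 to 4.10 FPKM in low glucose and from 4.13 to 4.87 FPKM in high glucose, almost all of it Cd68, and Adgre1 was listed at 0. The summed markers of δ, PP, acinar, duct, fibroblast and endothelial cells reached at most 2.11 FPKM in any library. The α-cell and macrophage sums moved with glucose, and their part in the glucose results below was not tested. In bulk cultures, fewer cells of a type and less RNA per cell cannot be told apart.

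Among the RNAs of the AMPK subunits, 1 isoform dominated for α and for β. Prkaa1, which encodes the catalytic subunit α1, had a mean of 40.3 FPKM over the 12 libraries, with a range of 37.2 to 42.8 FPKM. Prkaa2, which encodes the other catalytic subunit α2, had 1 count in all 12 libraries together, in HGTMAO replicate 1, against 42565 counts for Prkaa1. Per base of gene length that is a ratio of 72868 (95% exact interval 13078 to 2878200, covering counting error only), and Prkaa2 was the gene that did not pass the filter on low counts.

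Prkab1, the β1 scaffold, had a mean of 62.1 FPKM and Prkab2, the β2 scaffold, a mean of 7.23 FPKM. Prkab1 therefore made up 89.6% ± 0.609 (SD, n = 12) of the summed FPKM of both β genes. The γ RNA was shared by Prkag1 and Prkag2. Prkag1 (γ1) had a mean of 24.1 FPKM and Prkag2 (γ2) a mean of 18.1 FPKM, so that Prkag1 made up 57.0% ± 1.87 (SD, n = 12) of the γ sum, with a range of 53.1% to 59.2%. This share depends on the gene length used. The table gives Prkag1 1638 bases and GENCODE M21 gives it 2175 exon bases. The deposited FPKM was rescaled to the latter, and fragments were not recounted over the longer gene model. With that rescaling its mean was 18.1 FPKM and its share 49.97% ± 1.90 (SD, n = 12). Its level was then above that of Prkag2 in 6 of 12 libraries. The gene for the third γ subunit, Prkag3, had 1 count in all libraries together.

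Of the 3 sestrins, Sesn2, which also binds leucine, was the most abundant at a mean of 87.9 FPKM, and it had the highest level of the 10 genes. Sesn3 had a mean of 17.4 FPKM and Sesn1 a mean of 7.33 FPKM. Sesn2 made up 78.0% ± 1.29 (SD, n = 12) of the summed FPKM of the sestrins. Ddit4 had a mean of 24.8 FPKM, and its relative Ddit4l, which encodes REDD2, had 23 counts over all libraries.

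Ordered by mean FPKM, the genes ran from Sesn2 through Prkab1, Prkaa1, Ddit4, Prkag1, Prkag2, Sesn3, Sesn1 and Prkab2 to Prkaa2. Sesn2 was above Prkab1, Prkab1 above Prkaa1 and Prkaa1 above Ddit4 in 12 of 12 libraries. With the table's lengths Prkag1 was also above Prkag2, and Sesn3 above Sesn1, in 12 of 12. Prkab2 was above Prkaa2 in 12 of 12 as well. The other neighbours had overlapping ranges with the table's lengths. The place of Prkag1 in this order rests on its length there, since its M21 length gave a mean of 18.1 FPKM. Ddit4 was above Prkag1 in 7 libraries, Prkag2 was above Sesn3 in 10, and Sesn1 was above Prkab2 in 4. Among the 16222 genes that passed the filter on low counts, Sesn2 stood at the 96.9th percentile of mean FPKM, Prkab1 at the 95.1st and Sesn1 at the 58.2nd.

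**Figure D1:**
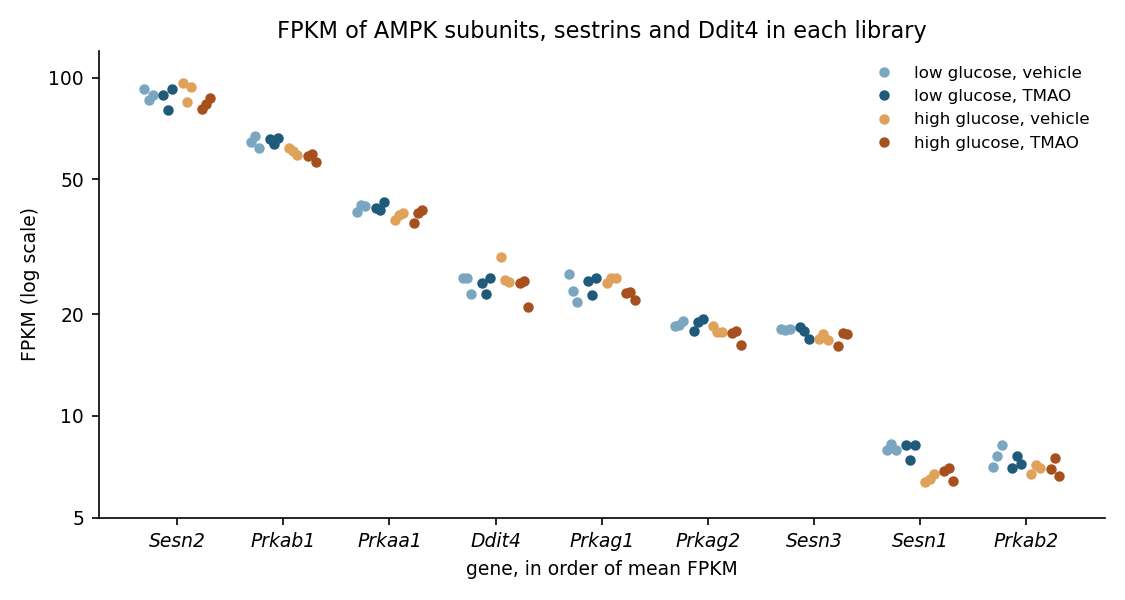
FPKM of 9 of the 10 genes on a log axis, with 1 point for each of the 12 libraries, coloured by group, and genes ordered by mean FPKM; Prkaa2, at 0 in 11 libraries, is not drawn. The groups of a gene lie close together beside the full span of levels, from 80.4 to 96.2 FPKM for Sesn2 down to 6.63 to 8.20 FPKM for Prkab2. The neighbours Ddit4 and Prkag1, Prkag2 and Sesn3, and Sesn1 and Prkab2 overlap.

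The proportions within the complexes were compared between conditions with exact two-sided permutation tests, in which the glucose label was permuted within each treatment and the TMAO label within each glucose level (8 tests, smallest possible p = 0.005). The share of Prkab1 among the β genes was 89.4% in high glucose and 89.7% in low glucose (difference -0.268 percentage points, exact permutation p = 0.505, adjusted p = 1). Prkag1 was 57.7% of the γ sum in high glucose and 56.3% in low glucose (difference 1.48 points, exact permutation p = 0.21, adjusted p = 0.56). The share of Sesn2 among the sestrins was 78.7% in high and 77.3% in low glucose (difference 1.36 points, exact permutation p = 0.08, adjusted p = 0.56). With TMAO against vehicle, the differences were 0.0208 points for Prkab1, -0.400 points for Prkag1 and -0.833 points for Sesn2, with adjusted p-values of 1, 1 and 0.56 in the same exact tests. With 1 count of Prkaa2 in all, the α share hardly varied, and its difference was -0.00334 points in each comparison (exact permutation p = 1). That p could take no other value with the count in 1 library, so these tests cannot decide whether the α share changed. They were kept among the 8 tests of the adjustment. No β, γ or sestrin share passed the threshold in either comparison.

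Sesn1, a sestrin known as a p53 target, and the β1 subunit gene Prkab1 were lower in high than in low glucose, and no other of the 9 genes tested passed the threshold. The tests used edgeR's quasi-likelihood model over all 16222 tested genes, and a gene was called at an adjusted p under 0.05. Normalized counts are counts scaled to a common library size. In vehicle, 1 of 9 genes was called, Sesn1, against 3.3% of all tested genes. In TMAO, 1 of 9 was called, Prkab1, against 3.64% of all tested genes. With both treatments averaged, Sesn1 and Prkab1 were called, 2 of 9, against 8.19% of all tested genes. An unadjusted p under 0.05 was held by 2 of 9 genes in vehicle, beside 13% of all tested genes, by 3 of 9 in TMAO, beside 14.7%, and by 5 of 9 averaged, beside 20.1%. The 5 were Sesn1, Prkab1, Prkag2, Prkaa1 and Sesn3, each with a lower mean in high glucose. The median log2 fold change of the 9 genes was -0.08 in vehicle and -0.08 in TMAO, beside 0.00 for all tested genes in each.

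Sesn1 lies on mouse chromosome 10, from 41809935 to 41908424 on the plus strand (build mm10). Its normalized counts were 598, 620.5 and 599.8 in the LGveh libraries and 481, 489.9 and 508 in the HGveh libraries. With TMAO they were 617, 556 and 618 in low glucose and 519, 531 and 484 in high glucose. All 6 high-glucose libraries were below all 6 low-glucose libraries, and the lowest low-glucose library, LGTMAO replicate 2, lay nearest to them. In FPKM the means were 8.05 ± 0.167 in LGveh, 7.93 ± 0.456 in LGTMAO, 6.54 ± 0.181 in HGveh and 6.78 ± 0.310 in HGTMAO (SD, n = 3 each).

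In vehicle the log2 fold change of Sesn1 was -0.30 (SE 0.07, adjusted p = 0.00656 by edgeR), a change of -18.7% in high glucose with a 95% interval from -26.1% to -10.6%. In TMAO it was -0.22 (SE 0.07, adjusted p = 0.0643 by edgeR), which missed the threshold. Under 20 alternatives the value in TMAO ran from -0.27 to -0.19, with adjusted p-values from 0.0300 to 0.299, and it passed the threshold in 1 of them, by edgeR without LGTMAO replicate 2. The fold changes in vehicle and TMAO differed by 0.08 on the log2 scale (95% interval -0.12 to 0.27), and this difference was not called (unadjusted p = 0.418 by edgeR). Averaged over both treatments, the log2 fold change was -0.26 (SE 0.05, adjusted p = 0.000306 by edgeR).

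Prkab1 lies on chromosome 5, from 116013586 to 116024508 on the minus strand. Its normalized counts were 3745, 3896 and 3606 in LGveh and 3592, 3528 and 3422 in HGveh. With TMAO they were 3810.4, 3683 and 3848 in low glucose and 3407, 3453 and 3263 in high glucose. The high-glucose libraries were again all below the low-glucose libraries, by a small margin in vehicle, where HGveh replicate 1 and LGveh replicate 3 nearly met.

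In TMAO the log2 fold change of Prkab1 was -0.16 (SE 0.04, adjusted p = 0.0321 by edgeR), a change of -10.7% in high glucose with a 95% interval from -16.2% to -4.90%. This call was lost when any of 5 libraries was left out, with adjusted p-values by edgeR of 0.105 without LGTMAO replicate 1, 0.0878 without LGTMAO replicate 3, 0.0760 without HGTMAO replicate 1, 0.0569 without HGTMAO replicate 2 and 0.197 without HGTMAO replicate 3. In vehicle the log2 fold change was -0.09 (SE 0.04, adjusted p = 0.366 by edgeR), which was not called. Averaged over both treatments, it was -0.13 (SE 0.03, adjusted p = 0.00723 by edgeR). The fold changes in vehicle and TMAO differed by -0.07 (95% interval -0.20 to 0.06), a difference that was not called (unadjusted p = 0.274 by edgeR).

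The other AMPK subunits were not called. Prkaa1, at chromosome 15 from 5143861 to 5181899, had log2 fold changes of -0.08 in vehicle and -0.08 in TMAO (SE 0.05 in each), and -0.08 averaged over treatments (SE 0.03, adjusted p = 0.126 by edgeR). Its normalized counts ranged from 3528 to 3769.9 in low glucose and from 3281 to 3562 in high glucose, so the ranges overlapped over both treatments together, although within vehicle and within TMAO the 3 high-glucose libraries were all below the 3 low-glucose libraries. Prkag2 had a log2 fold change of -0.09 averaged over treatments (SE 0.03, adjusted p = 0.120 by edgeR), and Prkab2 one of -0.08 (SE 0.05, adjusted p = 0.342 by edgeR). Prkag1 had opposite signs, 0.09 in vehicle and -0.10 in TMAO (SE 0.07 in each), with neither called, and its response averaged over treatments was -0.01 (SE 0.05). In GENCODE M21, 43.7% of the exon bases of Prkag1 overlap the antisense gene B130046B21Rik, and 12.3% of those of Prkag2 overlap Prkag2os2. These antisense genes had 2 to 13 and 18 to 64 counts per library, beside 618 to 856 for Prkag1 and 1802 to 2591 for Prkag2. Whether counting used strand is not stated, so fragments in the overlaps cannot be assigned with certainty.

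Sesn2 (chromosome 4, 132492032 to 132510501, minus strand), Sesn3 (chromosome 9, 14275067 to 14333101, plus strand) and Ddit4 (chromosome 10, 59949669 to 59951834, minus strand) were not called for glucose. Sesn3 had normalized counts of 5194, 5188 and 5209 in LGveh and 4889, 5051 and 4838 in HGveh, with a log2 fold change of -0.08 (SE 0.04, adjusted p = 0.493 by edgeR). The LGveh libraries of Sesn3 lay closer to each other than those of any other group of that gene, and all 3 were above the HGveh libraries. Sesn2 had log2 fold changes of 0.05 in vehicle and -0.06 in TMAO (SE 0.05 in each). Averaged over treatments, the change of Sesn2 in high glucose had a 95% interval from -5.62% to 4.78%. For Ddit4 the same interval ran from -5.35% to 9.95%. Ddit4 varied more between replicates than most of the genes, with 979, 836 and 826 normalized counts in HGveh, where replicate 1 was the highest of all libraries.

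**Figure D2:**
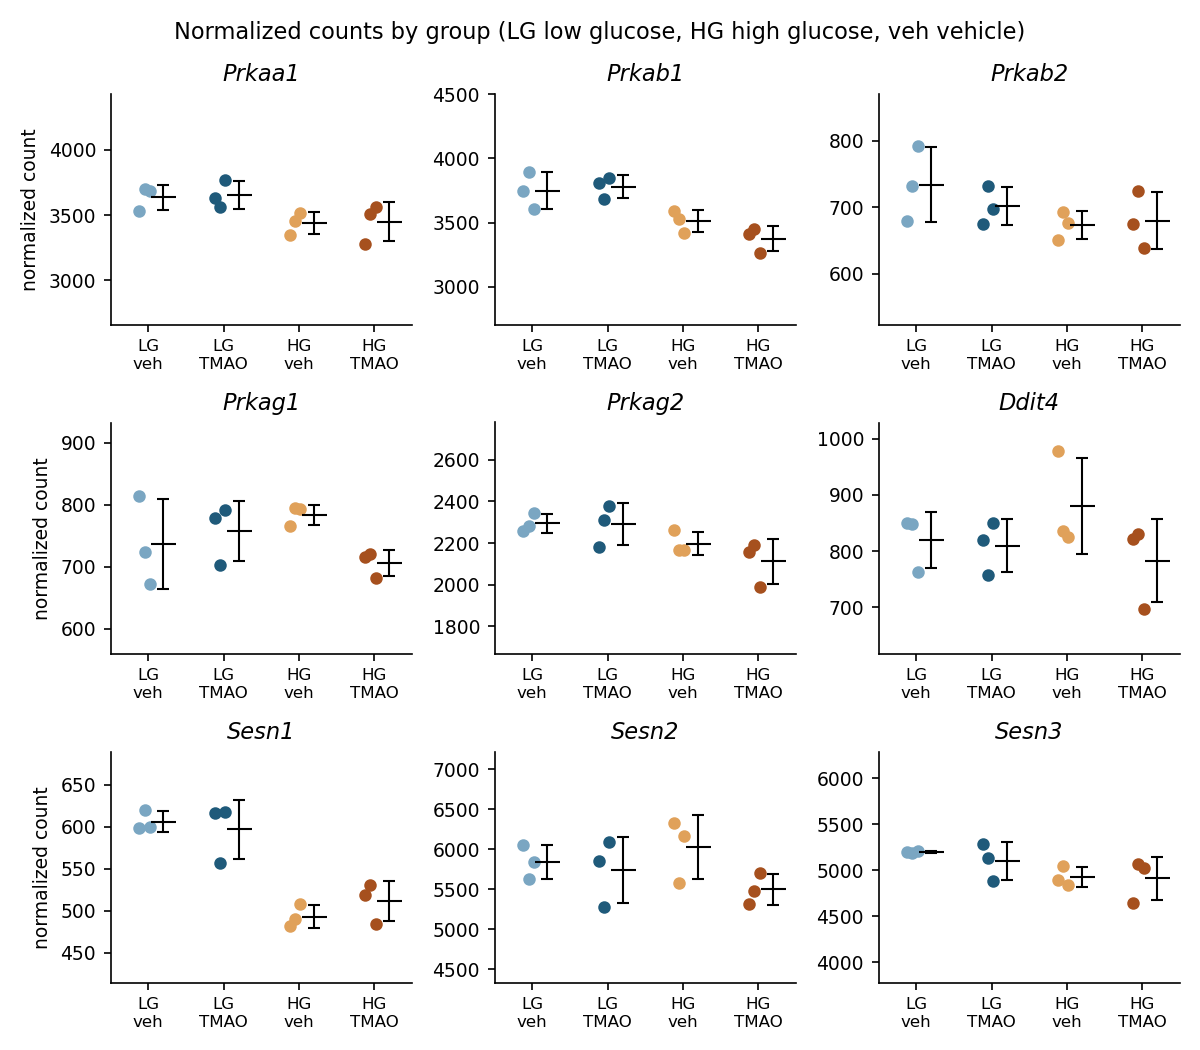
Normalized counts of the 9 tested genes in the 4 groups, with 1 point for each library and the mean ± SD (n = 3) beside them; each axis runs from 25% below to 25% above that gene's mean and does not start at 0. Sesn1 shows the clearest step, with low-glucose libraries from 556 to 620.5 and high-glucose libraries from 481 to 531.

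No gene of the 9 tested passed the threshold between TMAO and vehicle at either glucose level. In low glucose, 0 of 9 were called by edgeR, beside 0.00616% of all tested genes, and 0 of 9 had an unadjusted p under 0.05, beside 2.2% of all. The log2 fold changes there ran from -0.07 to 0.04, with the 95% intervals of all 9 lying between changes of -13.1% and 13.1%. In high glucose, 0 of 9 were called, beside 0% of all tested genes, and 3 of 9, Sesn2, Ddit4 and Prkag1, had an unadjusted p under 0.05, beside 5.35% of all. With both glucose levels averaged, 0 of 9 were called, beside 0% of all, and 1 of 9, Sesn2, had an unadjusted p under 0.05, beside 3.62% of all. DESeq2 and limma also called 0 of the genes in these 3 comparisons, with an unadjusted p under 0.05 for 0 genes in low glucose, for 1 gene by each tool in high glucose and for 1 gene by DESeq2 and 0 by limma averaged over glucose.

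The 3 genes with low unadjusted p in high glucose were all lower with TMAO. Ddit4 had 821, 831 and 697 normalized counts in HGTMAO beside the 979, 836 and 826 of HGveh given above, so the groups overlapped, and its log2 fold change was -0.17 (SE 0.07, unadjusted p = 0.0339, adjusted p = 0.910 by edgeR). Sesn2 had 5312, 5482 and 5704 in HGTMAO and 6332, 5583 and 6168 in HGveh, with a log2 fold change of -0.13 (SE 0.05, unadjusted p = 0.0172, adjusted p = 0.910 by edgeR). Prkag1 had 715, 719.9 and 682 in HGTMAO and 765, 794 and 792 in HGveh, with no overlap and a log2 fold change of -0.15 (SE 0.07, unadjusted p = 0.0348, adjusted p = 0.910 by edgeR). None of the 3 passed the adjustment over all tested genes.

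The test of whether TMAO altered the glucose response called 0 of 9 genes, beside 0% of all tested genes, and 0 of 9 had an unadjusted p under 0.05, beside 3.36% of all. The value farthest from 0 was that of Prkag1, whose glucose response in TMAO minus that in vehicle was -0.19 on the log2 scale (95% interval -0.39 to 0.01). For Sesn2 it was -0.11 (95% interval -0.26 to 0.04) and for Ddit4 -0.15 (95% interval -0.36 to 0.07). DESeq2 and limma also called 0 genes, with 0 at an unadjusted p under 0.05.

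**Figure D3:**
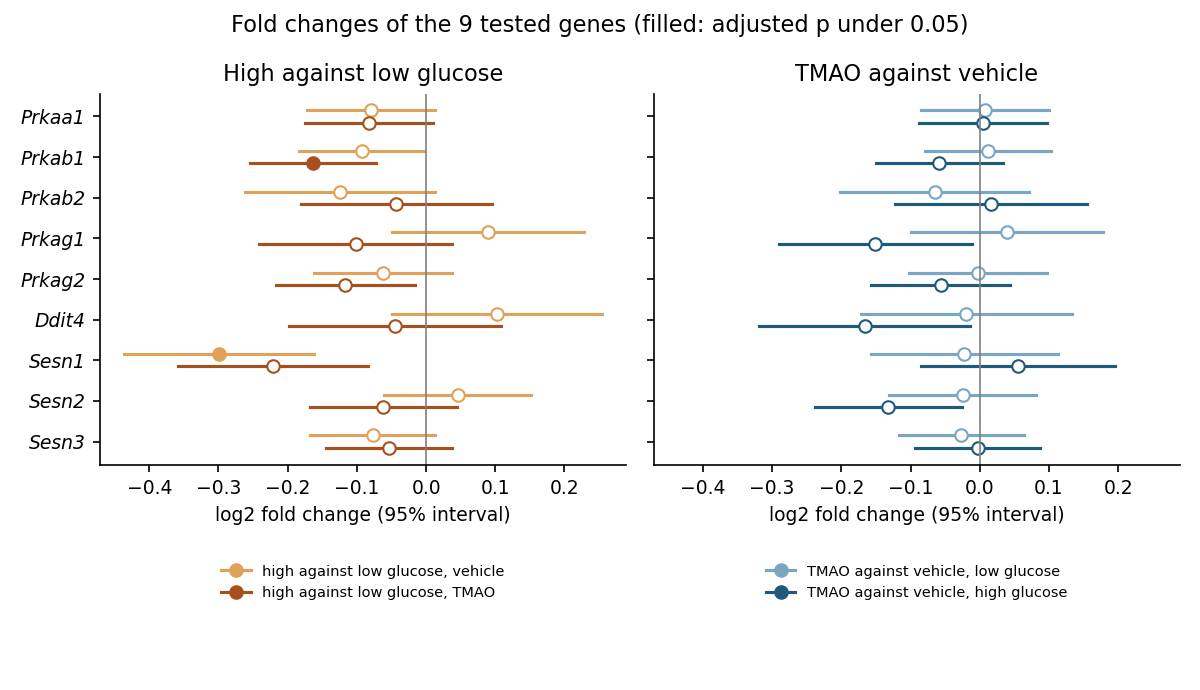
Log2 fold changes of the 9 tested genes with 95% intervals, for high against low glucose within each treatment and for TMAO against vehicle within each glucose level; filled points were called by edgeR at an adjusted p under 0.05. The filled points are Sesn1 in vehicle at -0.30 and Prkab1 in TMAO at -0.16, and no TMAO comparison has one.

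The other genes of the pathway were read against the shares of all tested genes called for glucose, which were 3.3% in vehicle, 3.64% in TMAO and 8.19% with both averaged, and against the shares with an unadjusted p under 0.05 given above. No gene upstream of AMPK was called for glucose. The list held 8 kinases and scaffold genes, including Stk11 (LKB1) and Camkk2, and 0 of 8 were called by edgeR or had an unadjusted p under 0.05 in either treatment or averaged. Among 18 substrates and effectors of AMPK, 2 rose and 1 fell in each treatment, and 2 rose and 2 fell averaged. Txnip, which encodes a thioredoxin inhibitor that limits glucose uptake, fell by 0.80 on the log2 scale in vehicle and by 0.72 in TMAO (SE 0.06 in each, adjusted p = 3.65e-10 and 3.16e-09 by edgeR). Ppargc1a, a coactivator of mitochondrial genes, rose by 0.59 in vehicle and 0.62 in TMAO, and Ulk1, the kinase that starts autophagy, by 0.32 and 0.26. Among 10 AMPK-related kinases, Snrk rose by 0.30 and Nuak1 fell by 0.25 in vehicle. In TMAO their log2 fold changes were 0.12 and -0.20. There 0 of 10 were called by edgeR, and 4 had an unadjusted p under 0.05. Averaged, 1 of the 10 rose and 2 fell.

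On the side of mTORC1, Wdr24 was the gene called within a treatment. Tested were 9 components of mTORC1 and mTORC2, 5 genes of the TSC complex and Rheb and 12 genes of the Rag and Ragulator list. Besides Rag and Ragulator genes, the last list held Slc38a9, Castor2 and Sar1b. Of these lists, 0 genes were called by edgeR in either treatment. An unadjusted p under 0.05 was held, in that order, by 1, 1 and 1 of them in vehicle and by 2, 2 and 1 in TMAO. Of 11 genes of the GATOR and KICSTOR complexes, through which sestrins act, 1 was called, Wdr24 in TMAO, a GATOR2 subunit whose log2 fold change was -0.25 (SE 0.07, adjusted p = 0.0317 by edgeR), beside -0.07 in vehicle. With both treatments averaged, Wdr24 was called again, and Mlst8, an mTOR subunit, fell by 0.21 (SE 0.05, adjusted p = 0.00860 by edgeR) while Rhebl1, a relative of Rheb, rose by 0.22 (SE 0.06, adjusted p = 0.0150 by edgeR). No gene of the Rag and Ragulator list was called by edgeR or had an unadjusted p under 0.05 averaged.

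Among the lists of stress and transcription-factor targets, calls were found for ATF4, FoxO and p53 targets and not for hypoxia response genes. Of 21 targets of ATF4 and stress factors, 6 rose and 1 fell in vehicle, and 5 rose and 1 fell in TMAO, with a median log2 fold change of 0.14 in vehicle and 0.13 in TMAO beside 0.00 for all tested genes. Averaged, 9 rose and 1 fell. Cebpb rose by 0.52 and 0.53, Ppp1r15a by 0.50 and 0.48, and Atf3 by 0.40 and 0.38 in vehicle and TMAO, whereas Sesn2, known as an ATF4 target, gave the values above and was not called. Of 11 tested genes in a list of p53 (Trp53) and its targets, leaving out the sestrins and Ddit4, Btg2, an antiproliferative gene, rose by 0.78 in vehicle and by 0.89 in TMAO, and no other was called within a treatment. Averaged over treatments, where Sesn1 fell, Btg2 was called again and Cdkn1a, a cell-cycle inhibitor, rose by 0.11 (SE 0.03, adjusted p = 0.0205 by edgeR). Of 15 tested hypoxia response genes other than Ddit4, 0 were called by edgeR in either treatment, with an unadjusted p under 0.05 for 0 in vehicle and 1 in TMAO; averaged, 0 were called and 2 had an unadjusted p under 0.05. Of 12 tested FoxO factors and targets other than Sesn3, 3 rose and 1 fell in each treatment and 4 rose and 2 fell averaged, with Irs2, an insulin receptor substrate, up by 1.55 and 1.32, Trib1 up by 0.79 and 0.75, and Bcl6 up by 0.61 and 0.74 in vehicle and TMAO. In all, 17 of 130 tested genes on these lists were called in vehicle (13.1%, beside 3.3% of all tested genes), 15 of 130 in TMAO (11.5%, beside 3.64%) and 28 of 130 averaged (21.5%, beside 8.19%). No list gene was called by edgeR for TMAO against vehicle or in the test of whether TMAO altered the glucose response. The lists were chosen with earlier results known, and no test compared them with other genes or with each other.

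**Figure D4:**
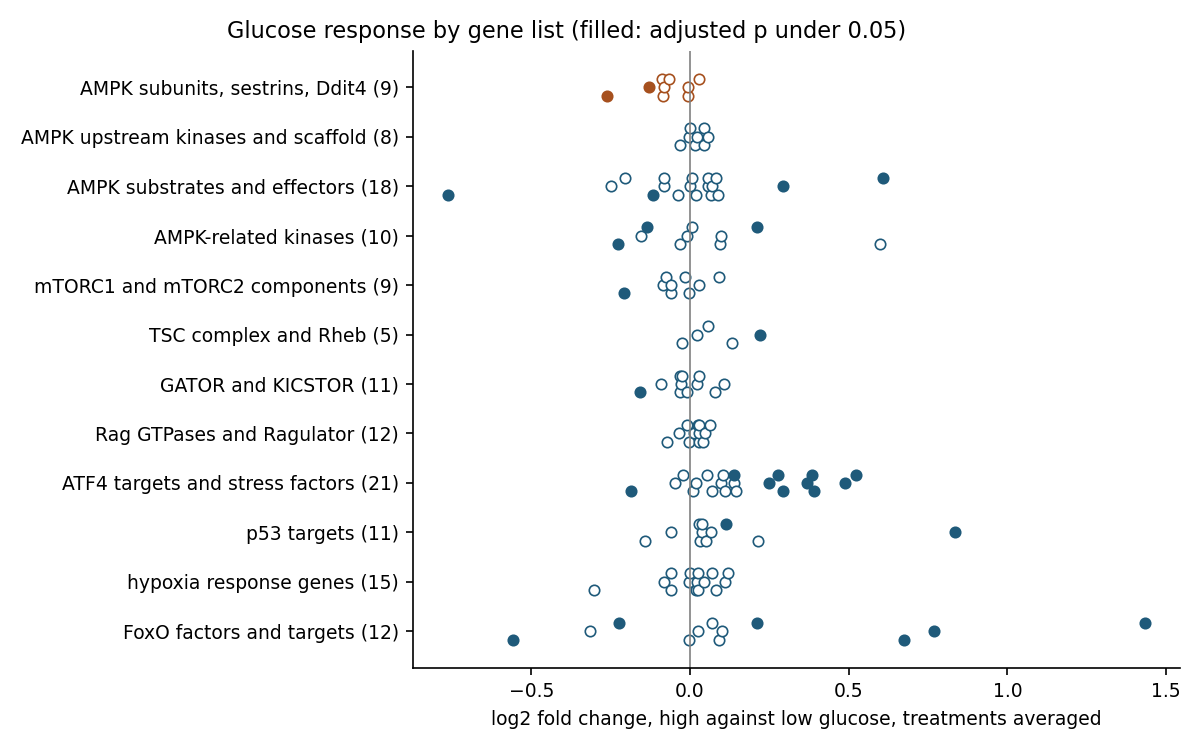
Log2 fold change between high and low glucose with both treatments averaged, with 1 point per gene and 1 row per gene list (number tested in brackets), filled where edgeR's adjusted p was under 0.05. The first row holds the genes described here, from -0.26 for Sesn1 to 0.03 for Ddit4, and the widest rows are the FoxO list, up to 1.43 for Irs2, and the AMPK substrates, down to -0.76 for Txnip.

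The genes whose log2 CPM (counts scaled to library size) were most like those of Sesn1 over the 12 libraries, among 12300 genes with a mean of at least 50 counts, were Zkscan6 (Pearson r = 0.964), Taf5 (r = 0.948) and Gadd45g (r = 0.940). Gadd45g, a stress-inducible gene, had mean normalized counts of 1275 in LGveh, 1129.5 in LGTMAO, 562 in HGveh and 534 in HGTMAO. For Prkab1 they were Srp68 (r = 0.946), Tuba8 (r = 0.945) and Kif18b (r = 0.941). Sesn1 and Prkab1 correlated with each other at r = 0.831, and at r = 0.556 after the mean of each group was removed. Of all pairs of the 9 genes, the highest value after that removal was that of Prkab1 and Ddit4, at r = 0.857, beside r = 0.377 before it. These values are descriptions over libraries that share their conditions and carry no test.

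The promoters of Sesn1 and Prkab1 are shown because these were the genes called for glucose, and that of Ddit4 because it was the only window of the 10 genes to hold any of the letters searched. Each window holds the 250 bases before a transcription start in RefSeq (GRCm38.p6), written 5′ to 3′ on the gene's strand, and Sesn1 has 2 such starts. The windows were searched on both strands for the cyclic AMP response element TGACGTCA, the E-box CACGTG, the hypoxia core ACGTG, which lies within the E-box, the CHOP and ATF4 element TGATGNAA, the FoxO element GTAAACA and the TATA box TATAAA. Capitals mark a match.
Sesn1, first start, chr10:41810324-41810573, plus strand: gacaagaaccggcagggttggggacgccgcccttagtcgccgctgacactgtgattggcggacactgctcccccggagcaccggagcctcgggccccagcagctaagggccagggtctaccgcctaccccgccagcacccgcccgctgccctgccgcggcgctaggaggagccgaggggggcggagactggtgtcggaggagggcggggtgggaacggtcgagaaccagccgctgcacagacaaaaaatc
Sesn1, second start, chr10:41887189-41887438, plus strand: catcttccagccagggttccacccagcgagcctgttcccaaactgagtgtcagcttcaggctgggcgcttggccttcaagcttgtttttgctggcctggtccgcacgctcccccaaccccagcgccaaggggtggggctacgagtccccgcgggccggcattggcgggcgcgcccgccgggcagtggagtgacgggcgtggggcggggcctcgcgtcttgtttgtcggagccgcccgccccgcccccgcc
Prkab1, chr5:116024429-116024678, minus strand: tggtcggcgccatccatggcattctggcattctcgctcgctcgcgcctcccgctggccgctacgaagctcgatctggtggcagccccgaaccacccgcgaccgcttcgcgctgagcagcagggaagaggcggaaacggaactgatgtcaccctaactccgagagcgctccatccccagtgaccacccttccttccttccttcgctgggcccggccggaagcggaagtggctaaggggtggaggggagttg
Ddit4, chr10:59951771-59952020, minus strand: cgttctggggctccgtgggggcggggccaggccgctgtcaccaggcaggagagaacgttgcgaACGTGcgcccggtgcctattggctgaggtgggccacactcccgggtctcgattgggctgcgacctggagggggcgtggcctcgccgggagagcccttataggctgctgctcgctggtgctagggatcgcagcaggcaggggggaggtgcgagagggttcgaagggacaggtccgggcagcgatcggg

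None of these letters was in the windows of Sesn1 and Prkab1 or in those of Prkaa1, Prkaa2, Prkab2, Prkag1, Prkag2, Sesn2 and Sesn3, which were not called, and the window of Ddit4 held the hypoxia core once, 187 to 183 bases before the start. Of 32851 RefSeq promoter windows of the same length, 16.6% held the hypoxia core, 12.4% the TATA box, 6.02% the E-box, 3.45% the CHOP and ATF4 element, 3.17% the FoxO element and 1.55% the cyclic AMP response element. The share of G and C was 70% and 71.2% for the starts of Sesn1, 65.6% for Prkab1 and 70% for Ddit4, beside a median of 52.4% over all RefSeq windows. Over the windows of all 10 genes it ran from 48.4%, at 1 of the 3 starts of Prkag2, to 85.2% for Prkaa1, and that start of Prkag2 and the window of Prkag1, at 51.6%, were below the median. Matches describe these letters in these windows and were not tested for binding.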

How the data were processed

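RNA from 12 MIN6 cultures was poly-T selected, made into libraries with the NEBNext Ultra kit and sequenced as paired ends. Cells were fasted for 1 h and then given 2.8 mM (low) or 16.8 mM (high) glucose. How long that step lasted for RNA-seq was not found in the study's text, while its insulin secretion assay used 1 h at these concentrations. The study's supplement also holds a scheme of the treatment for RNA-seq, a picture whose content is not given here. The authors deposited raw counts per gene and FPKM values, and both were used as deposited. The submitters' processing notes name HISAT2 2.0.5, featureCounts 1.5.0-p3, DESeq2 1.16.1 and the build mm10, with no further roles, and the strand setting is not given. Dividing counts by length returned the FPKM values when each library was scaled to a total that lay within 1.37% of its summed counts. No per-sample column was left unused.

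Counts were tested with edgeR 4.0.16 in R 4.3.3 (filterByExpr, TMM, robust quasi-likelihood F tests on 4 group means from all 12 libraries), with Benjamini-Hochberg adjustment over 16222 genes. Of the 10 genes, 9 passed the filter, and Prkaa2 did not. Standard errors are the log2 fold change divided by the square root of F. Alternatives used DESeq2 1.42.0, limma 3.58.1 on log2(FPKM + 1) and log2(FPKM + 0.1) for genes with a mean FPKM of at least 0.5, other filters, a replicate term, and each library left out. Replicates are biological per the labels' series text. The scripts were tested on simulated counts. Overlaps were read from GENCODE M21 (GRCm38), whose exon lengths equalled the table's for 9 of the 10 genes; Prkag1 is 1638 bases long in the table and 2175 in M21. The figures were drawn with matplotlib 3.10.9.

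The genes and the lists were chosen with earlier results of these data known. Named were all 10 genes, up to 3 called genes per list with the largest averaged glucose change, and the 3 genes most correlated with each called gene. Gadd45g was described further, and Stk11, Camkk2, Mlst8, Rhebl1 and Cdkn1a named, after their values were seen.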

Additional observations from a re-analysis of the deposited data

How the results depend on the processing

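Of 842 values recomputed under alternatives, which cover all glucose fold changes, the shares, the counts of calls and the 3 TMAO fold changes in high glucose with an unadjusted p under 0.05, 803 kept their direction and their side of the threshold. Sesn1 was called in vehicle under all 20 alternatives (log2 fold change -0.32 to -0.26), and Sesn1 and Prkab1 averaged over treatments under all 19. The number of the 10 genes called for glucose in TMAO fell from 1 to 0 when the fit held just the 6 libraries compared and with limma on log2(FPKM + 1) or log2(FPKM + 0.1), where the adjusted p of Prkab1 was 0.0709, 0.0503 and 0.0502; it ran from 0 to 2 with a library left out, and the cause was not tested. Values that were not called also changed sign. For glucose, with a library left out, Ddit4 ran from -0.0933 to 0.0291 in TMAO and from -0.0119 to 0.0663 averaged, Prkag1 from -0.0394 to 0.0341 averaged and Sesn2 from -0.0346 to 0.0170 averaged, while the TMAO difference in share ran from -0.258 to 0.201 points for Prkab1 and from -1.09 to 0.334 points for Prkag1. Of 36 log2 fold changes of the 9 genes for TMAO and the interaction, none of them called, 16 changed sign under at least 1 alternative, and these 16 are not among the 842. Giving Prkag1 its length in GENCODE M21, an alternative chosen after seeing the data, left its share differences at 1.496 points for glucose and -0.418 points for TMAO, neither called.

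Same-numbered libraries of different groups deviated together in 2 of 18 pairs (correlation over 0.1, range -0.0377 to 0.213), so the numbers were not taken to pair the libraries, although 9 of 12 libraries correlated best with their own number. With a replicate block the calls among the 10 genes stayed at 1 in vehicle, 1 in TMAO and 2 averaged for glucose and at 0 for TMAO, and the calls over all genes went from 536 to 717 in vehicle and from 591 to 783 in TMAO. With a library left out, the glucose calls over all genes ran from 328 to 625 in vehicle and from 344 to 657 in TMAO. With 3 libraries per group, a difference that was not called is bounded only by its 95% interval.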
